A study of Mus musculus with 6 samples.

Results

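The miRNAs described here are 10 mature miRNAs best known from stromal cells, the connective-tissue and smooth muscle cells that support an organ: mmu-miR-143-3p, mmu-miR-143-5p, mmu-miR-145a-5p, mmu-miR-145a-3p, mmu-miR-140-3p, mmu-miR-140-5p, mmu-miR-199a-3p, mmu-miR-199a-5p, mmu-miR-199b-3p and mmu-miR-214-3p, written below without the species prefix. They were matched by name among the 911 mature miRNA entries of the series. Their 10 names fell into 8 entries, because miR-199a-3p and miR-199b-3p share 1 joint entry (miR-199a/b-3p) and miR-143-5p had no reads in any library and counts as 0. The libraries came from bone-marrow-derived macrophages (BMDM) of ApoE-KO (EKO) mice, 3 libraries, and of wild-type (WT) mice, 3 libraries, which the series design calls biological replicates. ApoE, the gene lost in EKO mice, encodes apolipoprotein E, a lipid carrier that macrophages secrete. All marrow came from males aged 6 to 12 weeks and was grown in both genotypes with macrophage colony-stimulating factor (M-CSF) at 25 ng/mL, renewed every 2 days for 6 days. Cultures of both genotypes held 10% serum. The labels give no strain, and nothing in small RNA reads checks the genotype. The series asked which miRNAs differ with ApoE deficiency; for these 10, the added question is whether they moved together, as miRNAs from 1 kind of cell would.

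A miRNA hairpin is cut into a 5p and a 3p arm, and usually 1 arm is kept in the silencing complex, where its seed (bases 2 to 8) pairs with target transcripts. miR-143 and miR-145 are made from 1 primary transcript and mark smooth muscle and fibroblasts. The Mir199a-2 copy of miR-199a and miR-214 are made together from the Dnm3os transcript in mesenchymal cells. miR-140 lies in the Wwp2 gene and is best known from cartilage, where its 5p arm is studied most. Marrow cultures hold adherent stromal cells beside the macrophages, so that these miRNAs are possible traces of such cells. In RNA from a whole culture, fewer cells of a type and less RNA per cell cannot be told apart.

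Sequences are shown for the arms whose reads are compared below, since identical or near-identical arms decide which loci a count can come from. They are RefSeq sequences of build GRCm38.p6, which held 5 of the 10 members, and capitals mark the seed.
miR-140-3p: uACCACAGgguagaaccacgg
miR-199a-3p: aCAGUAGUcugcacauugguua
miR-199b-3p: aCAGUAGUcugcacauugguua
miR-199a-5p: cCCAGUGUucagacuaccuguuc
miR-214-3p: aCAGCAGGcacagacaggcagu
The 3p arms of miR-199a and miR-199b are the same 22 bases, so their joint count cannot be assigned to a locus. The other seeds are each different, and the members therefore do not form 1 seed family. In the same table the seed of miR-140-3p is also carried by miR-497b, which stood at 2.80 to 6.90 CPM per library here (CPM, a scaled read count, is defined below), and that of miR-214-3p by miR-761, which had no entry. The whole miR-140 hairpin shows the pair of arms that is compared below, with the 3p arm (bases 45 to 65) in capitals and the 5p arm on the other side of the loop.
Mir140: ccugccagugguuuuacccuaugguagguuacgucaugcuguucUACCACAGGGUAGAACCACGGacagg
Mir140 lies at chr8:107551244-107551313 on the plus strand of GRCm38.p6, inside Wwp2 and on its strand, where GENCODE M21 places an exon of at least 1 transcript. Mir199a-2 (chr1:162217814-162217923) and Mir214 (chr1:162223368-162223477) both lie in exons of the non-coding Dnm3os, opposite an intron of Dnm3, with 5444 bases between them. Mir199a-1 (chr9:21496495-21496564, minus strand) lies opposite an intron of Dnm2, and Mir199b (chr2:32318460-32318569) opposite an intron of Dnm1.

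Levels are CPM, the reads of a miRNA per 1000000 reads on mature miRNAs of its library, and do not compare different miRNAs fairly because ligation favours some sequences. The libraries held 34651516 to 39532548 such reads in EKO and 38440296 to 41331600 in WT, with 543 to 591 miRNAs read in EKO and 668 to 698 in WT. Of the 8 entries, 6 had enough reads for the edgeR quasi-likelihood test over 575 miRNAs. No miRNA passed a Benjamini-Hochberg adjusted p of 0.05 there, either lower in EKO (0% of those tested) or higher (0%), so that 0 of the 6 entries passed. At an unadjusted p under 0.05, 75 miRNAs were lower (13%) and 48 higher (8.35%). DESeq2 called 102 miRNAs, with 8.45% of those tested lower, and limma-voom 32, with 4% lower. The median log2 fold change of EKO over WT was -0.16 over all tested miRNAs.

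Of the miR-143/145 pair, miR-143-3p was read in every library and miR-145a almost nowhere. miR-143-3p, which targets hexokinase 2 among other transcripts, stood at 115, 77.4 and 73.8 CPM in the EKO libraries 1, 2 and 3, against 185, 211 and 165 CPM in the WT libraries 1, 2 and 3. The genotypes did not overlap, and the lowest WT value was still above the highest EKO value by more than either SD. Averages were 88.7 ± 22.8 CPM for EKO and 187 ± 22.9 CPM for WT (SD, n = 3 per genotype), and edgeR fitted -1.04 ± 0.24 (SE) as log2 fold change. The adjusted p was 0.0777 over all miRNAs (edgeR quasi-likelihood test), so the difference did not pass. It did pass with DESeq2 (adjusted p = 0.00426), with limma-voom (0.0410), with no low-count filter (0.00412, where 3.08% were lower), and among the 251 miRNAs averaging at least 10 CPM (edgeR, 0.0231), where 12.7% were called lower in EKO. In that last fit it was lost without EKO library 2 (0.0954) and without WT library 1, 2 or 3 (0.0732, 0.0783 and 0.0844).

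miR-145a-5p, which promotes the contractile state of smooth muscle through Klf4, had 0 reads in all 3 EKO libraries and 0, 41 and 0 reads in the WT libraries. Its other arm, miR-145a-3p, had 0 reads in all EKO libraries and 0, 62 and 0 in WT. Both arms thus came from WT library 2 alone, at 0.992 and 1.50 CPM, and too few libraries held them for a test. A count of 0 allows up to 3 reads, which is 0.0759 to 0.0866 CPM in the EKO libraries and 0.0726 to 0.0780 CPM in the WT libraries, for counting error only. In WT library 2 there were 212 reads of miR-143-3p for each read of miR-145a-5p. Across the series 169 of the 911 miRNAs (18.6%) were read in exactly 1 library, and 194 (21.3%) in WT libraries only, against 49 (5.38%) in EKO libraries only.

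**Figure D1:**
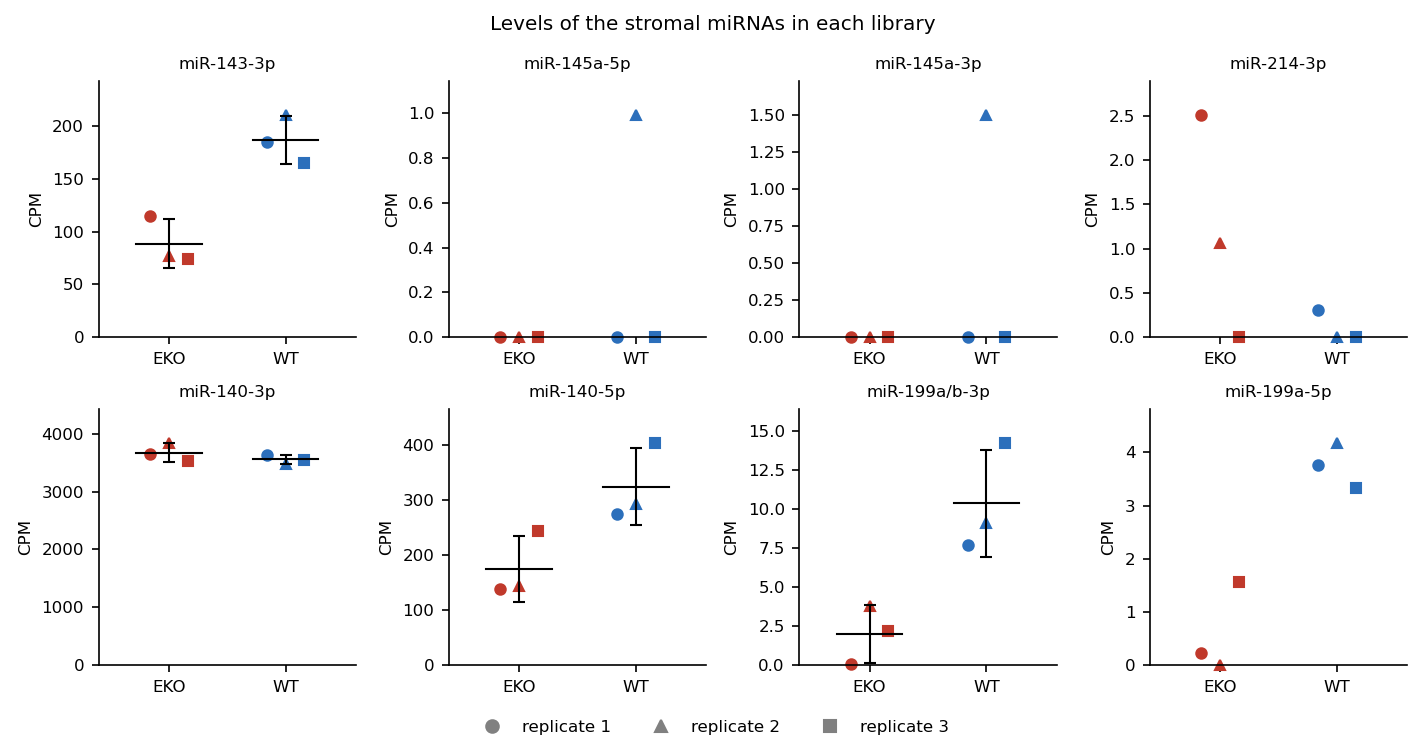
Levels (CPM, linear axis from 0, 1 panel per miRNA) of the 8 entries in the EKO libraries (red, left) and WT libraries (blue, right), each point 1 library and each shape a replicate number; bars give mean ± SD where every library had reads. miR-143-3p, miR-140-5p, miR-199a/b-3p and miR-199a-5p show separate groups, miR-140-3p shows none, and miR-145a rests on WT library 2.

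The arms of miR-140 differed from each other. miR-140-3p, the abundant arm, stood at 3649, 3852 and 3539 CPM in the EKO libraries, against 3637, 3487 and 3553 CPM in the WT libraries. The groups overlapped, and the log2 fold change was 0.08 ± 0.10 (SE, edgeR adjusted p = 0.798). miR-140-5p, which in cartilage limits the protease Adamts5, stood at 138, 143 and 243 CPM in the EKO libraries, against 275, 293 and 404 CPM in the WT libraries. No EKO library reached the lowest WT library, although EKO library 3 came close to it. Averages were 175 ± 59.6 CPM for EKO and 324 ± 70.0 CPM for WT (SD, n = 3 per genotype), and the fitted log2 difference was -0.87 ± 0.24 (SE, edgeR adjusted p = 0.0851). It passed with DESeq2 (adjusted p = 0.0106), with no low-count filter (0.0110), and among miRNAs averaging at least 10 CPM (edgeR, 0.0328). It did not pass with limma-voom (0.0524), and in the fit of abundant miRNAs it was kept without EKO library 3 (0.00406) and lost without any other library (0.0732 to 0.134).

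Both arms come from 1 hairpin, and a ratio of counts within a library is free of the scaling between libraries. There were 26.4, 27.0 and 14.5 reads of miR-140-3p per read of miR-140-5p in the EKO libraries, against 13.2, 11.9 and 8.79 in the WT libraries. Every EKO ratio was above every WT ratio. The share of other hairpins whose arm ratios separate in this way was not computed, so the separation is not shown to be particular to miR-140. On the log2 scale the ratio averaged 4.45 ± 0.51 for EKO and 3.48 ± 0.31 for WT (SD, n = 3 per genotype), a difference of 0.97, or 1.96-fold (two-sided exact permutation p = 0.1, the smallest that 3 against 3 allows). In counts of distinct read sequences, which are not on the scale of reads, the difference between the genotypes in the log2 ratio was 0.21.

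The miR-199a and miR-214 entries had few reads in EKO, and did not move one way. By mean CPM they ranked 299 (miR-199a/b-3p), 402 (miR-199a-5p) and 564 (miR-214-3p) of the 911 entries. The joint entry of miR-199a-3p and miR-199b-3p, an arm that represses Mtor and Cd44 transcripts, had 2, 149 and 80 reads in the EKO libraries, against 296, 376 and 583 reads in the WT libraries. This is 0.0577, 3.77 and 2.16 CPM in EKO, against 7.70, 9.10 and 14.2 CPM in WT. The groups did not overlap, and EKO library 1 stood far below the other EKO libraries. Averages were 1.99 ± 1.86 CPM for EKO and 10.3 ± 3.45 CPM for WT (SD, n = 3 per genotype). The log2 fold change was -2.37 ± 1.12 (SE, edgeR adjusted p = 0.287), and it missed the threshold in each read-count setting run. It was -1.80 without EKO library 1, -3.21 without EKO library 2 and -3.41 with limma-voom.

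The opposite arm, miR-199a-5p, had 8, 0 and 58 reads in the EKO libraries, against 145, 173 and 136 in the WT libraries. In CPM this was 0.231, 0 and 1.56 in EKO, against 3.77, 4.19 and 3.32 in WT, again without overlap. The fitted log2 fold change was -2.65 ± 1.66 (SE, edgeR adjusted p = 0.471). It was -4.90 without EKO library 3, which held most of the EKO reads, -2.05 without EKO library 2, which held none, and -4.47 with limma-voom. miR-199b-5p had 0 reads in every EKO library and 1, 2 and 0 reads in WT, so the WT reads of the 3p arm stood beside almost none of the miR-199b 5p arm. EKO library 1 held more 5p than 3p reads of miR-199a/b (8 against 2), EKO library 2 only 3p reads and EKO library 3 somewhat more 3p than 5p, while the WT libraries held 2.04, 2.17 and 4.29 reads of 3p per read of 5p.

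miR-214-3p, which in osteoblasts represses Atf4, went the other way in its values, with 87, 42 and 0 reads in the EKO libraries, against 12, 0 and 0 reads in the WT libraries. The fitted log2 fold change was 3.55 ± 2.61 (SE, edgeR adjusted p = 0.578), and the groups overlapped at 0. It was 2.32 without EKO library 1, 4.15 without EKO library 3 and 8.59 without WT library 1. Its 5p arm was read only in WT, at 0, 21 and 50 reads, with 0 reads in each EKO library. The 2 arms of miR-214 were thus never read in the same library, and the miR-214-3p reads did not follow those of miR-199a. Of the miR-199a loci only Mir199a-2 lies in Dnm3os with Mir214. Mir199a-1 carries the same 5p and 3p arms, so the miR-199a reads cannot be assigned to Dnm3os. EKO library 1, which held the most miR-214-3p, held the fewest miR-199a/b-3p reads.

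**Figure D2:**
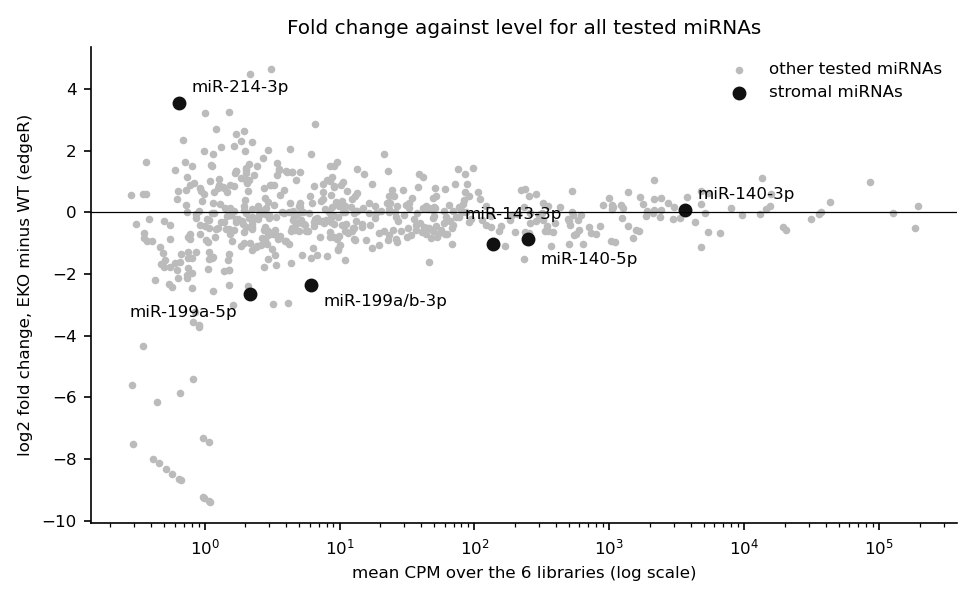
Fitted log2 fold change of EKO over WT (edgeR, vertical axis) against mean CPM over the 6 libraries (log axis) for the 575 tested miRNAs, with the 6 tested stromal entries in black. The stromal entries spread from -2.65 for miR-199a-5p to 3.55 for miR-214-3p, and miR-140-3p, the most abundant, sits at 0.08.

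Of the 6 tested entries 4 had lower and 2 higher values in EKO, with a median log2 fold change of -0.95, where 335 of the 575 tested miRNAs had lower values and their median was -0.16. At an unadjusted p under 0.05, 2 of the 6 were lower (miR-143-3p and miR-140-5p), beside 13% of all tested miRNAs. In 4 of the 6 no EKO library reached the lowest WT library, beside 102 of the 575 (17.7%), and beside 22.7% of those averaging at least 10 CPM. Both miR-199a entries would have entered the test on their WT libraries alone, so these counts are given as a description of the 6 and support nothing about the 10.

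Summed over the 8 entries, the level was 3905, 4077 and 3859 CPM in the EKO libraries, against 4109, 4006 and 4140 CPM in the WT libraries. Most of that sum was miR-140-3p, with 91.7% to 94.5% of it in EKO and 85.8% to 88.5% in WT. Without miR-140-3p the sum was 256, 225 and 321 CPM in EKO, against 472, 519 and 587 CPM in WT, and this remainder was nearly all miR-143-3p and miR-140-5p. The difference in the full sum was -138 CPM (EKO minus WT) and -57.1 CPM after TMM scaling, while without miR-140-3p it was -259 and -250.4 CPM. The level of the full sum is therefore mostly that of miR-140-3p. Its lower value in EKO is not, since miR-140-3p averaged 3680 CPM in EKO and 3559 CPM in WT. That difference lies mainly in miR-143-3p and miR-140-5p.

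The ratio of miR-143-3p to miR-199a/b-3p varied widely between libraries. There were 1993, 20.5 and 34.2 reads of miR-143-3p per read of miR-199a/b-3p in the EKO libraries, against 24.0, 23.2 and 11.6 in the WT libraries. It lay between 11.6 and 34.2 in 5 of the libraries, and EKO library 1 stood apart with its 2 reads of miR-199a/b-3p. The log2 ratio averaged 6.81 ± 3.62 for EKO and 4.22 ± 0.59 for WT (SD, n = 3 per genotype), a difference of 2.59 (two-sided exact permutation p = 0.3), and without EKO library 1 the difference was 0.51. For miR-143-3p to miR-145a-5p a ratio existed in 1 library only, and for miR-199a/b-3p to miR-214-3p in 3, at 0.0230 and 3.55 in EKO libraries 1 and 2 and 24.7 in WT library 1.

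**Figure D3:**
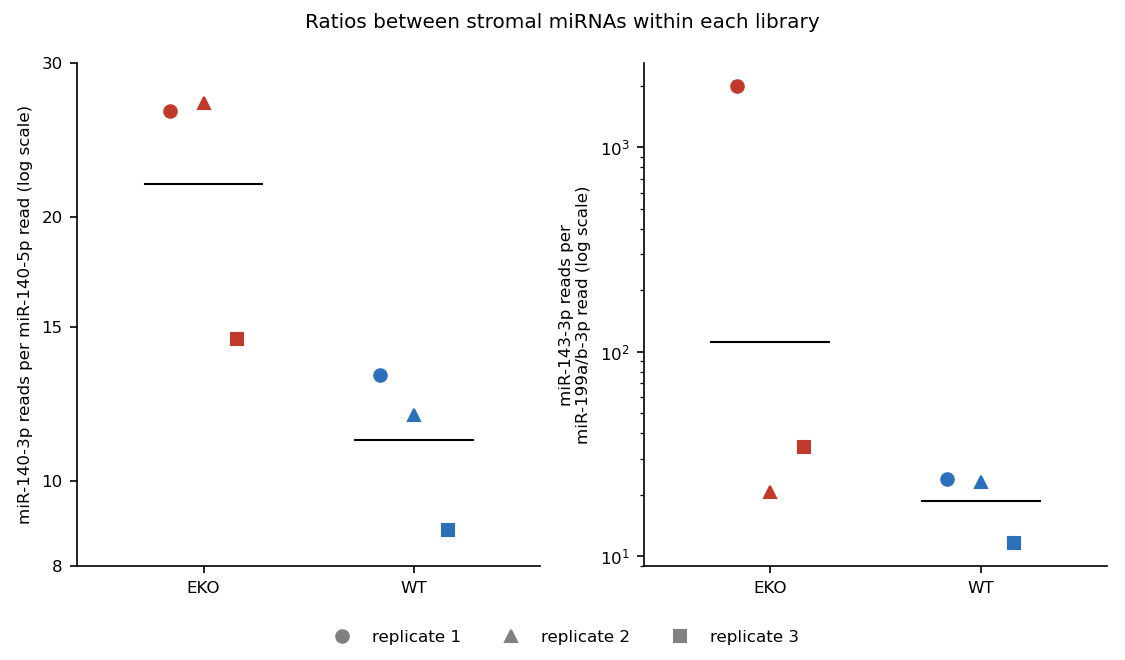
Reads of miR-140-3p per read of miR-140-5p (left) and of miR-143-3p per read of miR-199a/b-3p (right), both on log axes, for each EKO library (red) and WT library (blue), with shapes for replicate numbers and lines for geometric means. The arm ratio is 14.5 or more in EKO and 13.2 or less in WT, and the right-hand ratio is 1993 in EKO library 1.

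The order of the libraries within a genotype also differed between members. Among the EKO libraries miR-143-3p was highest in library 1 (0.40 above the EKO mean on the log2 scale), where miR-140-5p was lowest (-0.29). miR-140-5p was highest in EKO library 3 (0.53), where miR-143-3p was lowest (-0.24). Among the WT libraries miR-143-3p was highest in library 2 and lowest in library 3, and miR-140-5p was highest in library 3 and lowest in library 1. miR-140-3p stayed within 0.07 of its genotype mean in every library. The order of miR-140-5p by library number was thus the same in both genotypes, while that of miR-143-3p was not. With 3 libraries a genotype these orders are a description.

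Profiles over the 6 libraries were compared by the root mean square difference of log2(CPM + 1) after each profile's own mean was subtracted, over the 251 miRNAs averaging at least 10 CPM, for which the median over all pairs was 0.48. miR-143-3p and miR-140-5p differed by 0.50, miR-143-3p and miR-140-3p by 0.61, and the arms of miR-140 by 0.59. The miRNAs nearest to miR-140-5p were miR-26b-5p (0.055), miR-340-5p (0.073) and miR-30c-5p (0.096), none of them a stromal member. Of the 248 other miRNAs, 141 were nearer to miR-140-5p than its own 3p arm was, and 105 nearer than miR-143-3p was. Nearest to miR-143-3p were miR-96-5p (0.20), miR-450a-5p (0.29) and let-7e-5p (0.33), with 45 nearer than miR-140-5p. Nearest to miR-140-3p were miR-25-3p (0.039), miR-378a-3p (0.054) and let-7f-5p (0.060). These distances describe 6 libraries that share a genotype difference.

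**Figure D4:**
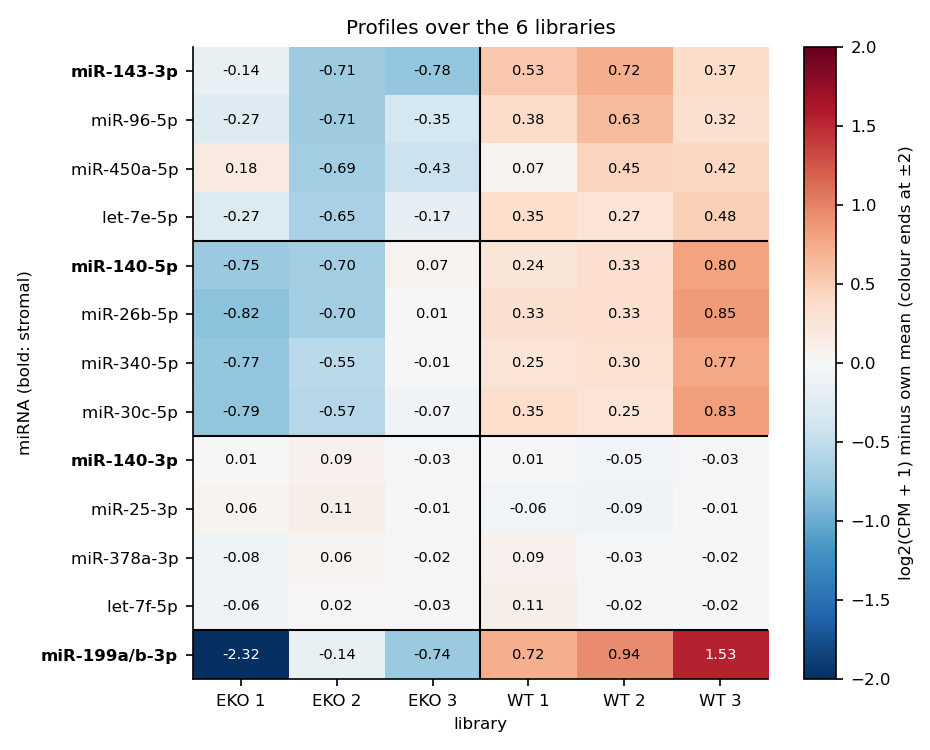
Deviation of log2(CPM + 1) from each miRNA's own mean over the 6 libraries (number and colour, colour ends at ±2) for the stromal miRNAs in bold and the 3 non-members nearest to miR-143-3p, miR-140-5p and miR-140-3p. miR-140-5p and miR-26b-5p share nearly the same row, while miR-140-3p stays close to 0 throughout.

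The number of distinct read sequences is given beside each count, since PCR copies cannot be told from other reads here. The deposited barcode count summed to 0 over the libraries, and the sources used here name no removal of PCR copies. miR-140-3p rested on 899, 1041 and 984 distinct sequences in the EKO libraries, against 1164, 1141 and 1115 in the WT libraries. These counts did not overlap, although the CPM values of miR-140-3p did. A lack of overlap in distinct sequences is thus not particular to miRNAs with lower CPM in EKO, and its share over all miRNAs was not computed. miR-140-5p rested on 75, 95 and 125 in EKO, against 112, 134 and 148 in WT, with overlapping groups. miR-143-3p rested on 57, 51 and 61 in EKO, against 88, 112 and 98 in WT, without overlap. The joint miR-199a/b-3p entry rested on 2, 6 and 4 in EKO, against 20, 21 and 36 in WT, again without overlap. The 42 reads of miR-214-3p in EKO library 2 were all of 1 sequence, and its 87 reads in EKO library 1 were of 6.

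The same edgeR test on distinct sequences, an alternative chosen after seeing the data, covered 351 miRNAs and called 10 lower in EKO (2.85%) and 13 higher (3.7%). Among the lower ones was miR-199a/b-3p, with a log2 fold change of -2.32 ± 0.48 (SE; edgeR adjusted p = 0.0349). For miR-143-3p the log2 fold change was -0.49 ± 0.18 (adjusted p = 0.115), less than the -1.04 in reads. For miR-140-5p it was -0.10 ± 0.15 (adjusted p = 0.733), against -0.87 in reads, and for miR-140-3p 0.10 ± 0.07 (adjusted p = 0.374). The fit scales distinct sequences by their own library totals, so these sizes are not on the scale of the read counts, and the reason for the gap between the measures was not tested.

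**Figure D5:**
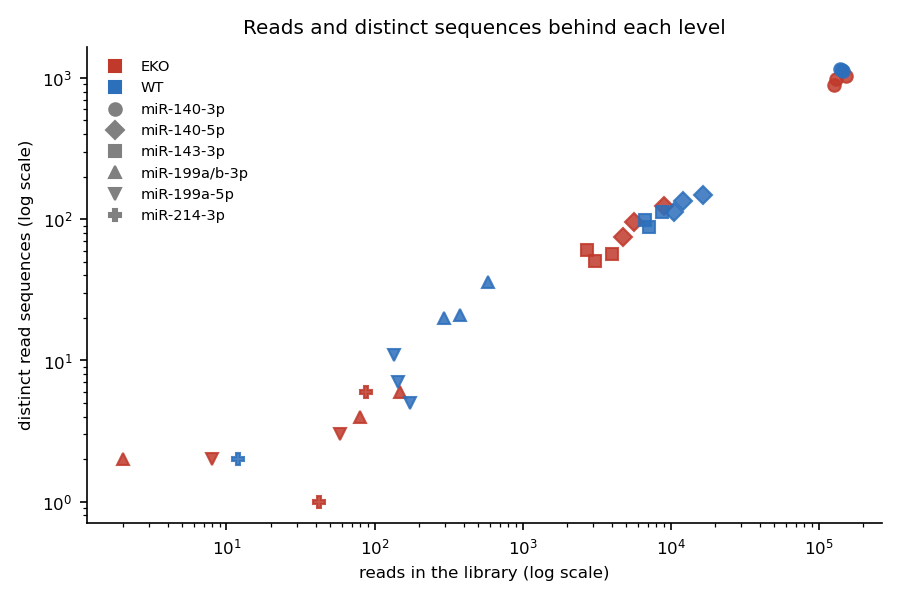
Distinct read sequences (vertical, log axis) against reads (horizontal, log axis) for 6 stromal entries, each point 1 library with reads, EKO in red and WT in blue. The miR-199a and miR-214 points of EKO libraries rest on 1 to 6 distinct sequences, and the miR-140-3p points on 899 to 1164.

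Other miRNAs known from mesenchymal cells gave further values for the same cultures. Of 9 listed miRNAs, 8 had an entry and 5 were tested, with 3 lower and 2 higher values in EKO and a median log2 fold change of -0.35. Of these, miR-152-3p stood at 202, 238 and 237 CPM in EKO, against 318, 280 and 283 CPM in WT (log2 fold change -0.35 ± 0.13, edgeR adjusted p = 0.154). miR-125b-5p stood at 129, 163 and 168 CPM in EKO, against 242, 219 and 270 CPM in WT (-0.65 ± 0.14, adjusted p = 0.0766, edgeR). Neither had an EKO library as high as the lowest WT library, which held for 22.7% of all miRNAs averaging at least 10 CPM. miR-100-5p overlapped, at 54.6, 77.9 and 76.6 CPM in EKO, against 74.4, 60.2 and 71.2 CPM in WT. The summed level of the list was 397 to 497 CPM in EKO and 574 to 646 CPM in WT. Both miR-152 and miR-125b are also made by blood cells.

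The imprinted Dlk1-Dio3 cluster, whose many miRNAs are read in mesenchymal and embryonic cells, was close to absent. Of its 28 listed miRNAs 23 had no entry, and the 5 others summed to 0.0289, 0.683 and 0 CPM in EKO, against 2.16, 1.40 and 2.88 CPM in WT. The most abundant of them, miR-127-3p, had 0, 27 and 0 reads in EKO, against 54, 0 and 70 reads in WT. These sums were lower in every EKO library than in any WT library, where the EKO sums rest almost wholly on the 27 reads of miR-127-3p. Over the whole series 21.3% of miRNAs were read in WT libraries only, against 5.38% in EKO libraries only.

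Markers of other cells were summed by list. The 10 macrophage and myeloid miRNAs, all of them read, summed to 143180 to 171457 CPM in EKO and 215991 to 228801 CPM in WT, a sum carried by miR-21a-5p. EKO values were lower for 8 of these 10 and higher for 2, and the list's median log2 difference was -0.56. The higher ones were miR-146a-5p, which overlapped (0.07), and miR-223-5p, at 2673, 2880 and 2731 CPM in EKO, against 2162, 2006 and 1959 CPM in WT (log2 fold change 0.46 ± 0.10, edgeR adjusted p = 0.0766). Of the endothelial pair, miR-126a-5p had 18 reads in WT library 1 and 0 elsewhere, and miR-126a-3p stood at 64.6, 73.1 and 67.2 CPM in EKO, against 79.5, 76.3 and 77.7 CPM in WT, and the epithelial list summed to 114 to 174 CPM in EKO and 140 to 157 CPM in WT. The erythroid list summed to 117 to 145 CPM in EKO and 127 to 160 CPM in WT, nearly all of it the joint miR-486a/b-5p entry. Its other entry, miR-451a, stood at 5.92, 5.31 and 1.29 CPM in EKO, against 0, 0 and 0.587 CPM in WT, without overlap (edgeR adjusted p = 0.2595). In 68 of the 575 tested miRNAs (11.8%) all EKO libraries stood above all WT libraries. The miR-451a value of EKO library 3 rested on 48 reads of 1 distinct sequence. The striated muscle list, with 2 of its 4 miRNAs read, summed to 2.83 to 25.3 CPM in EKO and 0.653 to 3.25 CPM in WT. Its main member, miR-1a-3p, stood at 6.61, 25.1 and 2.80 CPM in EKO, against 3.23, 0.653 and 0.978 CPM in WT. The part of stromal cells in the lower miR-143-3p and miR-140-5p values was not tested.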

How the data were processed

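Per the labels' protocols, total RNA from column-purified macrophage cultures was made into small RNA libraries with an NEB kit. Per the submitters' processing notes the genome build was mm9. For the aligner, trimming and counter, the tool is not given in the sources used here. Per the file headers, the deposited tables give for each reference the distinct read sequences (a count), the total read count, and an estimated count in which reads that match several references are divided. They also hold a barcode count, which summed to 0 over all libraries. For all 8 entries the divided and total counts were equal. Stem-loop references (0.00127% to 0.00161% of reads) were left out.

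Estimated counts were rounded and tested with edgeR 4.0.16 in R 4.3.3 (TMM, filterByExpr, quasi-likelihood, genotype alone, all 6 libraries), with limma 3.58.1 and DESeq2 1.42.0 as alternatives; the fit was tested on simulated data. SE is the log2 fold change divided by the square root of F. Ratios were compared by two-sided exact permutation. The members and lists were chosen with earlier results of these data known. Named are all members, their measured other arms, up to 3 most abundant miRNAs per list, and the 3 nearest profiles; of these miRNAs, those not described are in the summed lists. No interval was drawn from read counts, since floors and intervals cover counting error only.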

Additional observations from a re-analysis of the deposited data

How the results depend on the processing

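No direction of a tested stromal entry changed under any setting run. Where the edgeR fit called 0 of 575 miRNAs, DESeq2 called 102 (283 without an adjusted p), limma-voom 32, no low-count filter 52, a mean of at least 10 CPM 59, and distinct read sequences 23; DESeq2 size factors, library totals only, total read counts and leaving out the 3 most abundant miRNAs called 0. Of the stromal entries these settings called 2 (DESeq2, no filter, at least 10 CPM) or 1 (limma-voom, distinct sequences). Leaving out each library gave 0 to 91 calls over all miRNAs and 0 to 2 stromal entries, both filters included; among the abundant miRNAs, runs added after seeing the data, omitting EKO replicate 1 left 13 calls, omitting EKO replicate 2 left 1, omitting EKO replicate 3 gave 91 and omitting a WT replicate left 0; under the main filter 45 calls came without EKO replicate 3, with miR-140-5p among them (adjusted p = 0.0277, edgeR). With the replicate block the log2 fold change was -3.26 for miR-199a/b-3p, -4.16 for miR-199a-5p and 4.29 for miR-214-3p. Leaving out each library, the miR-140 arm ratio difference ran from 0.80 to 1.26, the miR-143-3p to miR-199a/b-3p difference from 0.51 to 3.81, the summed level from -203 to -94.2 CPM (-57.1 CPM after TMM scaling), and the sum without miR-140-3p from -286 to -228 CPM (EKO minus WT). The replicate block called 62 miRNAs, with miR-143-3p (adjusted p = 0.00487) and miR-140-5p (0.00189) among them, and the paired exact permutation p of the miR-140 arm ratio was 0.25, the smallest it allows. The labels do not say whether equal numbers share a day or litter. Over all tested miRNAs, deviations of same-numbered libraries had correlations of -0.11, -0.04 and -0.03, and each EKO library was closer to a WT library of another number. For miR-140-5p the deviations were alike, at -0.29, -0.24 and 0.53 in EKO libraries 1, 2 and 3, against -0.21, -0.13 and 0.34 in WT. For miR-143-3p and miR-140-3p the order differed between genotypes, and a shared batch was not tested. The other planned ratios had libraries at 0; with 1 read added to both counts, the log2 differences of EKO minus WT were 0.62 for the miR-199a/b arms (two-sided exact permutation p = 1.0), 0.58 for miR-143-3p to miR-145a-5p (p = 1.0, exact) and -6.33 for miR-199a/b-3p to miR-214-3p (p = 0.2, exact). In EKO libraries miR-199a and miR-214, where read, rested on 1 to 6 distinct sequences, and whether their reads include PCR copies was not tested.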
